A study of Mus musculus with 6 samples.

Results

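Transcripts of 9 cytokine genes of the interleukin-6 (IL-6) and interleukin-12 (IL-12) families, namely Il6, Il12a, Il12b, Il23a, Il27, Ebi3, Lif, Osm and Clcf1, were followed in primary mouse macrophages stimulated with LPS with or without metformin pretreatment. The members were chosen by family with earlier results of these data known, so that counts of them are descriptions. All 9 were among the 12755 genes tested of the 54532 genes listed. The cells were bone-marrow-derived macrophages (BMDMs) of the mouse strain C57BL/6, grown in medium conditioned by L929 cells, and the study's methods call the mice wildtype. The data comprise 6 RNA-seq libraries of poly-A RNA, 2 of untreated BMDMs, 2 of cells under LPS at 100 ng/ml for 2 h, and 2 of cells that had 5 mM metformin for 6 h before the same LPS stimulation (Met + LPS). No group received metformin without LPS. The age and sex of the mice are not given in the sources used here. The methods state that cells were seeded in duplicate, and nothing says that replicates came from separate mice or cultures, so that p-values measure only the spread between these libraries.

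LPS comes from the outer membranes of Gram-negative bacteria and is sensed by macrophages through TLR4, and metformin is a drug given in type 2 diabetes. Cytokines of the IL-6 family signal through receptors that contain the chain gp130, and those of the IL-12 family are heterodimers of an alpha chain and a beta chain. In the IL-12 family, p40 (encoded by Il12b) pairs with p35 (Il12a) in IL-12 and with p19 (Il23a) in IL-23, whereas EBI3 pairs with p28 (Il27) in IL-27 and with p35 in IL-35. IL-12 is known for driving T helper 1 responses, IL-23 for sustaining T helper 17 cells, and both are products of macrophages and dendritic cells that have sensed microbes. Receptors of both families act through JAK kinases and STAT transcription factors, which SOCS proteins inhibit.

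The stretches upstream of 4 of the 5 members with an available stretch are shown. Osm, whose pattern of change differs from those of these 4, had none. RefSeq entries for the build GRCm38.p6 matched 5 of the 9 members, Il6, Il12a, Il12b, Ebi3 and Lif. Each sequence is the 250 bases before the annotated start, on the plus strand, at chr5:30012864-30013113 for Il6, chr11:44399813-44400062 for Il12b, chr11:4257318-4257567 for Lif and chr17:55952373-55952622 for Ebi3. Capitals mark matches to the motifs searched on both strands, which were kappaB (the site of NF-kappaB), AP-1 (TGANTCA), C/EBP (TTNNGNAA), CRE (TGACGTCA) and STAT (TTCNNNGAA).
Il6: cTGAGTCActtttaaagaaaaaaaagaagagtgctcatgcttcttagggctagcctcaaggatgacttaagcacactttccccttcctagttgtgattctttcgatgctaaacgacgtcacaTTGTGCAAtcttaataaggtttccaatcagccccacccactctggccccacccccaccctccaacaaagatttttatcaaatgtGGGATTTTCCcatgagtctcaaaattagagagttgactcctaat
Il12b: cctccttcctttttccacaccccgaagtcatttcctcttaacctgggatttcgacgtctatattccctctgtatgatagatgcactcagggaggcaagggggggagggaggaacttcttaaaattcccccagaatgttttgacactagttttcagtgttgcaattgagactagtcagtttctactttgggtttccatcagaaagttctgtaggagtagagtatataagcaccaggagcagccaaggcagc
Lif: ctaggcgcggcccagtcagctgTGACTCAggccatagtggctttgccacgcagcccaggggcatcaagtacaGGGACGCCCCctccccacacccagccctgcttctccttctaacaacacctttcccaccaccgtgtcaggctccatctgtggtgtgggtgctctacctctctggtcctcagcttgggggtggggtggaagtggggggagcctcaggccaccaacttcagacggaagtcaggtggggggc
Ebi3: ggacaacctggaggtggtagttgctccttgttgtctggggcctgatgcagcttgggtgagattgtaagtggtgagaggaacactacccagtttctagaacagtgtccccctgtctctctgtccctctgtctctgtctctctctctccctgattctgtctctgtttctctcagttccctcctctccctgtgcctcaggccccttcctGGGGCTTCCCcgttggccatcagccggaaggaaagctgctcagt
In Il6, capitals mark an AP-1 match at -249 to -243, a C/EBP match at -128 to -121 and a kappaB match at -44 to -35, counted from -1 at the base before the start. Lif held an AP-1 match at -228 to -222 and a kappaB match at -178 to -169, and Ebi3 held a kappaB match at -44 to -35. No match lay in the window of Il12b or in those of the 2 starts of Il12a, which says only that these letters are not in these windows. Matches did not overlap each other. Of 32851 such windows over all genes, 7.25% held the kappaB motif, 6.75% AP-1, 36.8% C/EBP, 1.55% CRE and 7.02% STAT. A match is a description of letters, and binding was not measured here.

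The values are TPM, reads per gene length, brought to a common total in each library. The reads on genes, recovered from the TPM values and the exon lengths, lay between 25457020 and 30762763 per library. Log2 fold changes were computed on log2(TPM + 1), on which changes of genes with low TPM come out too small. A gene was called when its adjusted p was under 0.01 in limma (Benjamini-Hochberg adjustment) and its log2 fold change, in either direction, reached 2 against untreated cells or 0.7 between Met + LPS and LPS. Over all tested genes, the median log2 fold change was -0.48 in LPS vs. untreated, which became -0.01 after median-ratio scaling of the libraries, so that changes against untreated cells are to be read relative to that shift. An exact two-sided permutation test of 2 libraries against 2 cannot give a p below 0.333. The 8 macrophage markers summed to 44621 to 46599 TPM in untreated, 37412 to 37903 TPM in LPS and 30877 to 30948 TPM in Met + LPS libraries. Most of each sum was Lyz2, at means of 34912, 26835 and 21292 TPM in untreated, LPS and Met + LPS libraries. Of the 8 markers, 6 passed an adjusted p under 0.01 in limma between Met + LPS and LPS, where 32.6% of all tested genes did. The median log2 fold change over the list was -0.34, and 1 was called lower, the Fc receptor gene Fcgr1 (-1.14, adjusted p = 5.1e-05 in limma). Among all tested genes 4.09% were called lower. Cd68 (0.00, adjusted p = 0.97 in limma) and Csf1r (-0.07, adjusted p = 0.2) did not pass. The part of these marker changes in the values of the cytokines was not tested. Fewer cells of a type and less RNA of a marker per cell cannot be told apart in bulk samples.

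LPS upregulated 5 of the 9 family members (Il6, Il12b, Il23a, Il27 and Ebi3), where 3.72% of all tested genes were called higher than in untreated BMDMs. Of these 5, all but Ebi3 started from under 3 TPM. In the other direction, 0 of 9 were called lower in limma, where 2.37% of all tested genes were. At an unadjusted p under 0.05 in limma 1 member was lower, Osm, and with voom on recovered reads 0 were called lower. Their median log2 fold change was 2.22, beside -0.48 over all tested genes.

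**Figure D1:**
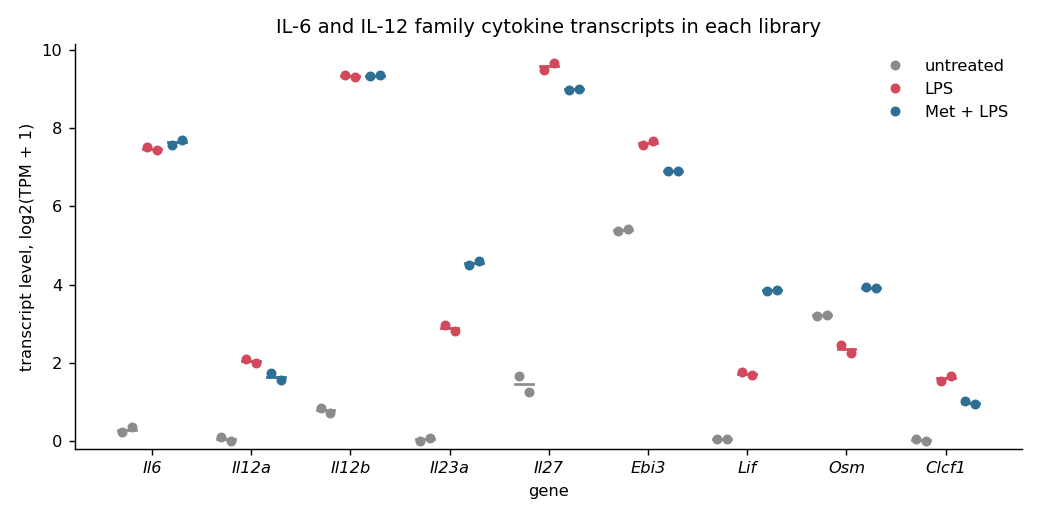
Transcript level of each cytokine gene as log2(TPM + 1) in each library. Points are libraries, 2 per group (grey, untreated; red, LPS; blue, Met + LPS), and short lines are group means. Ebi3 and Osm are the genes furthest from the floor in untreated cells (means 41.3 and 8.26 TPM), and Il23a, Lif and Osm lie higher in Met + LPS than in LPS.

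Il6, the founding member of its family and an inducer of the acute phase response and of T helper 17 differentiation (ENSMUSG00000025746, GRCm38 chromosome 5, 30013114 to 30019981, plus strand), was at 0.162 and 0.287 TPM in the untreated libraries, at 182 and 172 TPM in the LPS libraries and at 190 and 208 TPM in the Met + LPS libraries. It was near the floor in both untreated libraries, with 3 and 5 reads, and both stimulated groups lay far above it. LPS vs. untreated gave a log2 fold change of 7.18 (SE 0.07, limma, Benjamini-Hochberg adjusted p = 3.3e-09), the rank 24 from the top of the 12755 tested genes. Met + LPS vs. LPS gave a log2 fold change of 0.17 (SE 0.07, 95% interval 0.00 to 0.34, adjusted p = 0.089 in limma), which did not pass the test. The lower Met + LPS library lay above the higher LPS library. On recovered reads the log2 fold change in voom was also 0.17, with an adjusted p of 0.0073, still far under the size cut-off. The mean level in Met + LPS was 1.13 times that in LPS.

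Lif and Osm, whose genes are neighbours, were the IL-6 family members that went up with metformin pretreatment. Lif (leukemia inhibitory factor, which keeps mouse embryonic stem cells undifferentiated; ENSMUSG00000034394, chromosome 11, 4257557 to 4272514, plus strand) was at 0.0302 and 0.0321 TPM in the untreated libraries, 2.39 and 2.20 TPM in the LPS libraries and 13.4 and 13.5 TPM in the Met + LPS libraries. The 3 groups did not overlap, and the untreated values rest on 1 read in each library. The log2 fold change in Met + LPS vs. LPS was 2.13 (SE 0.09, limma, Benjamini-Hochberg adjusted p = 2e-05), rank 22 from the top of the 12755 tested genes, and the mean was 5.85 times as high. In LPS vs. untreated, the log2 fold change of 1.68 (SE 0.09) stayed under the cut-off of 2 on the log2(TPM + 1) scale. On reads, which need no pseudocount, the ratio of LPS to untreated was 74.8 (95% exact interval 20.3 to 623, counting error only).

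Osm (oncostatin M, an activator of stromal and liver cells; ENSMUSG00000058755, chromosome 11, 4236420 to 4241026, plus strand) had its own pattern. Its levels were 8.10 and 8.42 TPM in the untreated libraries, 4.51 and 3.80 TPM in the LPS libraries and 14.4 and 14.0 TPM in the Met + LPS libraries. LPS libraries were the lowest and Met + LPS libraries the highest, without overlap of any groups. Between Met + LPS and LPS the log2 fold change was 1.56 (SE 0.08, limma, Benjamini-Hochberg adjusted p = 3.5e-05) and the mean was 3.42 times as high. In LPS vs. untreated it was -0.85 (SE 0.08, adjusted p = 8.3e-05 in limma), under the size cut-off, -0.37 relative to the median tested gene, and -0.40 after median-ratio scaling. Osm was the only one of the 9 members with a negative log2 fold change in LPS vs. untreated. Against untreated cells, Met + LPS libraries had a log2 fold change of 0.72 (SE 0.08), under the cut-off of 2.

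Summed markers of some other cell types had the same order of groups as Osm. The 8 neutrophil markers summed to 30.0 to 32.8 TPM in untreated, 26.7 to 28.2 TPM in LPS and 43.6 to 45.9 TPM in Met + LPS libraries. Of these markers 5 were tested, and 0 were called in Met + LPS vs. LPS in limma. At any size, 0 passed an adjusted p under 0.01 in limma, where 32.6% of all tested genes did. At an unadjusted p under 0.05, 4 were higher and 0 lower, and 2 were called higher with voom on recovered reads. Elane had means of 16.3, 8.64 and 15.6 TPM in untreated, LPS and Met + LPS libraries, whereas S100a8 (5.52, 5.90 and 8.53 TPM) and S100a9 (4.90, 9.08 and 14.3 TPM) had no lower mean in LPS than in untreated cells. The neutrophil marker Ly6g was at 0 in every library but the first Met + LPS library (0.140 TPM). The 5 mast cell markers summed to 20.6 to 21.1, 8.05 to 8.18 and 23.2 to 24.4 TPM in the same order of groups. Most of that sum was Kit, which was itself called higher in Met + LPS than in LPS (log2 fold change 1.45, adjusted p = 1.1e-05 in limma), and Mcpt4 and Tpsb2 were at 0 in all 6 libraries. The part of either in the values of Osm was not tested.

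Clcf1, a B cell stimulating ligand of the ciliary neurotrophic factor receptor (ENSMUSG00000040663, chromosome 19, 4214238 to 4223490, plus strand), was at 0.0354 and 0 TPM in the untreated libraries, at 1.91 and 2.18 TPM in the LPS libraries and at 1.03 and 0.913 TPM in the Met + LPS libraries. Its 2 stimulated groups did not overlap, and their libraries held about 30 to 60 recovered reads. These counts are approximate, since the values of Clcf1 did not come out as whole reads at the exon length used here. LPS vs. untreated gave a log2 fold change of 1.58 (SE 0.14), under the size cut-off, and the ratio of reads was 115 (95% exact interval 20.3 to 4598). Metformin pretreatment gave a log2 fold change of -0.62 against LPS alone (SE 0.14, limma, Benjamini-Hochberg adjusted p = 0.011), which did not pass the test. With voom on recovered reads it was -1.04 (adjusted p = 0.0011), which did. Clcf1 shares 311 exon bases with the annotated gene AC109138.7 on the same strand, so that its counts are uncertain.

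Among the IL-12 family chains, both beta chains were abundant after LPS, and one of them, Ebi3, was called in Met + LPS vs. LPS. Il12b, the p40 chain (ENSMUSG00000004296, chromosome 11, 44400063 to 44414033, plus strand), was at 0.802 and 0.639 TPM in the untreated libraries, 654 and 637 TPM in the LPS libraries and 642 and 659 TPM in the Met + LPS libraries. The values of both stimulated groups overlapped. LPS raised it by a log2 fold change of 8.55 (SE 0.05, limma, Benjamini-Hochberg adjusted p = 9.5e-10), rank 6 from the top of all tested genes. Metformin pretreatment left a log2 fold change of 0.01 against LPS alone (SE 0.05, adjusted p = 0.87 in limma), with a 95% interval of -0.11 to 0.14. Its sign turned to -0.01 without the second LPS library or without the second Met + LPS library.

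Ebi3, the beta chain of IL-27 and IL-35 (ENSMUSG00000003206, chromosome 17, 55952640 to 55957022, plus strand), was the most abundant member in untreated cells, at 40.5 and 42.1 TPM. It reached 190 and 202 TPM in the LPS libraries and 119 and 120 TPM in the Met + LPS libraries. The 3 groups did not overlap, and the Met + LPS libraries lay between the other two. The log2 fold change in LPS vs. untreated was 2.22 (SE 0.04, limma, Benjamini-Hochberg adjusted p = 6.2e-08). Between Met + LPS and LPS it was -0.71 (SE 0.04, adjusted p = 5.7e-05 in limma), just past the cut-off of 0.7, and the mean in LPS was 1.64 times that in Met + LPS. The call was lost with median-ratio scaling (-0.69) and without the second LPS library (-0.66). Of the 31-mers of Ebi3 transcripts, 81.0% were found in no other gene, and 270 of its exon bases overlap Gm16712, an antisense gene at 1.81 and 2.99 TPM in untreated, 43.1 and 46.8 TPM in LPS and 38.9 and 42.3 TPM in Met + LPS libraries. Whether the counting used strand is not given in the sources used here, and without strand the reads of both cannot be told apart where they overlap.

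Of the alpha chains, Il23a was called higher in Met + LPS than in LPS, and Il12a and Il27 were not called. Il23a, the p19 chain of IL-23 (ENSMUSG00000025383, chromosome 10, 128296139 to 128298752, minus strand), was at 0 and 0.0621 TPM in the untreated libraries, 6.78 and 5.98 TPM in the LPS libraries and 21.8 and 23.3 TPM in the Met + LPS libraries. Every Met + LPS library was above every LPS library, and the untreated libraries held 0 and 1 read, where 3 reads correspond to 0.176 and 0.186 TPM. The log2 fold change was 2.84 in LPS vs. untreated (SE 0.09, limma, Benjamini-Hochberg adjusted p = 5.7e-07), and the ratio of reads was 215 (95% exact interval 38.1 to 8523). Between Met + LPS and LPS it was 1.68 (SE 0.09, adjusted p = 4e-05 in limma), with a mean 3.54 times as high. Il23a was called higher in both comparisons, which share the LPS libraries.

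Il12a, the p35 chain of IL-12 and IL-35 (ENSMUSG00000027776, chromosome 3, 68690644 to 68698547, plus strand), was at 0.0773 and 0 TPM in the untreated libraries, 3.24 and 2.98 TPM in the LPS libraries and 2.33 and 1.93 TPM in the Met + LPS libraries. It was the scarcest IL-12 family chain in both stimulated groups, with 29 to 42 reads per library. The log2 fold change in LPS vs. untreated was 1.99 (SE 0.13, limma, Benjamini-Hochberg adjusted p = 1.4e-05), just under the size cut-off, and 2.04 without the first untreated library, 2.03 without the second LPS library, and 2.12 after median-ratio scaling, where it passed. The ratio of reads was 79.3 (95% exact interval 13.8 to 3171). Met + LPS vs. LPS gave a log2 fold change of -0.40 (SE 0.13, adjusted p = 0.047 in limma), which did not pass the test.

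Il27, the p28 chain of IL-27, a cytokine that restrains T cell responses (ENSMUSG00000044701, chromosome 7, 126589010 to 126594941, minus strand), was at 2.19 and 1.37 TPM in the untreated libraries, 719 and 816 TPM in the LPS libraries and 506 and 513 TPM in the Met + LPS libraries. It was the most abundant member after LPS, and both Met + LPS libraries lay below both LPS libraries. LPS raised it by a log2 fold change of 8.12 (SE 0.13, limma, Benjamini-Hochberg adjusted p = 2.8e-08), rank 13 from the top of the tested genes. Between Met + LPS and LPS it was -0.59 (SE 0.13, 95% interval -0.91 to -0.26, adjusted p = 0.012 in limma), short of both cut-offs. The adjusted p was 9.1e-09 with voom and between 0.0027 and 0.072 under the other alternatives, and the size stayed under 0.7 under every alternative. Il27 shares 103 exon bases with Apobr on the opposite strand, which was at 148 to 176 TPM in all libraries.

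Counted together, the members were called on both sides of the comparison of pretreated with unpretreated cells. In Met + LPS vs. LPS, 3 of 9 members were called higher (Il23a, Lif and Osm), where 4.19% of all tested genes were called higher. In the other direction, 1 of 9 was called lower (Ebi3), where 4.09% of all tested genes were. Without a cut-off on size, 4 of 9 members passed an adjusted p under 0.01 in limma, where 32.6% of all tested genes did, so that passing that test alone is close to the background. The libraries of both groups did not overlap for 8 of 9 members, all but Il12b, and for 73.8% of all tested genes. The members had a median log2 fold change of 0.01, beside -0.03 over all tested genes.

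**Figure D2:**
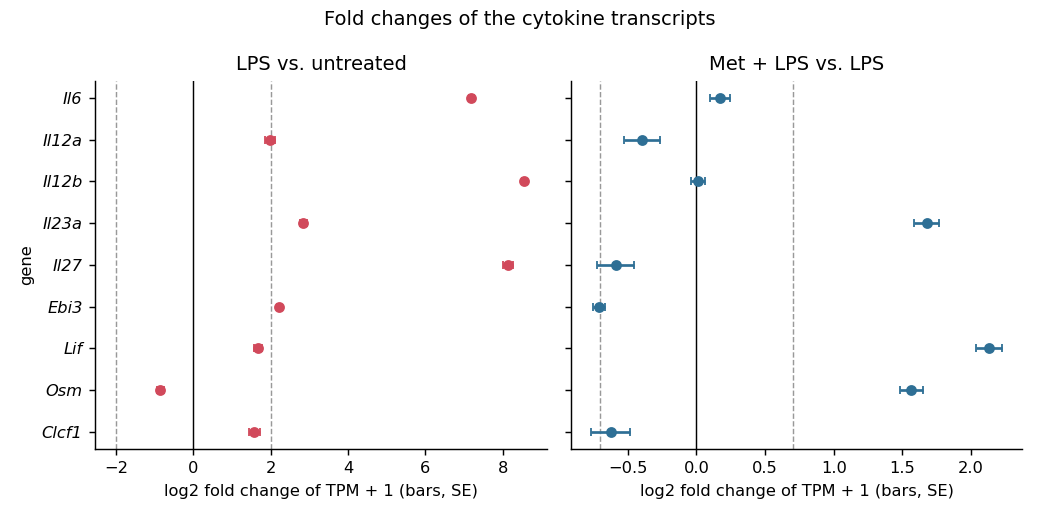
Log2 fold changes of TPM + 1 of the 9 cytokine genes in LPS vs. untreated (left) and in Met + LPS vs. LPS (right), from limma. Points are estimates, bars are standard errors, dashed lines are the cut-offs of 2 and 0.7, and the x axes differ in range. Lif, Il23a and Osm lie beyond the right cut-off in Met + LPS vs. LPS, and Ebi3 lies on the left one at -0.71.

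Compared with untreated cells, 5 of 9 members were called higher in Met + LPS (Il6, Il12b, Il23a, Il27 and Lif), where 3.18% of all tested genes were. The log2 fold changes of these were 7.35, 8.57, 4.51, 7.54 and 3.81. Ebi3 had 1.51 in this comparison, under the cut-off of 2, and 2.04 after median-ratio scaling, past it. Il12a had 1.59 and Clcf1 0.95, both under the cut-off on this scale. With voom on recovered reads Il12a had 4.96 and Clcf1 5.01, and 7 members were called higher, as they were with a pseudocount of 0.1.

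The rise from the untreated to the Met + LPS mean was also expressed as a share of the rise from the untreated to the LPS mean, in TPM and without a test, since both differences share the untreated libraries. It was 101% for Il12b and 113% for Il6. It was 68.0% for Il12a, 66.3% for Il27, 50.6% for Ebi3 and 47.1% for Clcf1. It was 355% for Il23a and 592% for Lif, whose LPS levels were low. These shares depend on the scale, and on log2(TPM + 1) they were 159% for Il23a, 227% for Lif, 92.8% for Il27 and 68.1% for Ebi3. For Osm, which was lower in LPS than in untreated cells, no share of a rise can be given.

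The order of the levels changed between the groups, as TPM are per length and can be set side by side. In untreated cells the order from the top was Ebi3, Osm, Il27, Il12b and Il6, followed by Il12a, Lif, Il23a and Clcf1, whose libraries overlapped from one to the next. After LPS it was Il27, Il12b, Ebi3, Il6, Il23a, Osm, Il12a, Lif and Clcf1, with no overlap of the libraries of neighbours. In Met + LPS it was Il12b, Il27, Il6, Ebi3, Il23a, Osm, Lif, Il12a and Clcf1, again with no overlap of neighbours. Il6 and Ebi3 thus traded places, with means of 177 and 196 TPM in LPS and of 199 and 120 TPM in Met + LPS.

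Because IL-12 family cytokines are heterodimers, the balance of chain transcripts within a library was compared, a ratio that the scaling of the library does not change. In LPS the p40 transcript was 202 and 214 times as abundant as that of p35, and in Met + LPS 275 and 342 times. The log2 ratio of Il12a to Il12b was lower by a mean of -0.56 in Met + LPS, and both Met + LPS libraries lay below both LPS libraries. The p40 transcript exceeded that of p19 by 96.4 and 107 times in LPS and by 29.4 and 28.3 times in Met + LPS. The log2 ratio of Il23a to Il12b was -6.66 ± 0.102 in LPS and -4.85 ± 0.0379 in Met + LPS (SD, n = 2 each), a difference of 1.81, or 3.51-fold (exact permutation p = 0.333, the smallest possible here). Set against both of its partners together, p40 was 65.2 and 71.1 times their sum in LPS, 26.6 and 26.2 times in Met + LPS and 10.4 and 10.3 times in untreated libraries, where the sum of both partners rests on 1 read in each library.

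The chains of IL-27 were within a small range of each other's change between LPS and Met + LPS. The ratio of Il27 to Ebi3 was 3.79 and 4.03 in LPS and 4.25 and 4.27 in Met + LPS. The mean difference was 0.13 on the log2 scale (exact permutation p = 0.333, the smallest possible here), and both Met + LPS libraries lay above both LPS libraries. Between untreated and LPS libraries the same log2 ratio differed by 6.54, since Ebi3 exceeded Il27 by 18.5 and 30.8 times in untreated cells. The log2 ratio of Il12a to Ebi3, the chains of IL-35, differed by 0.16 between Met + LPS and LPS and its libraries overlapped (exact permutation p = 0.667). Protein was not measured in these files, and a ratio of transcripts says nothing of how chains pair.

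**Figure D3:**
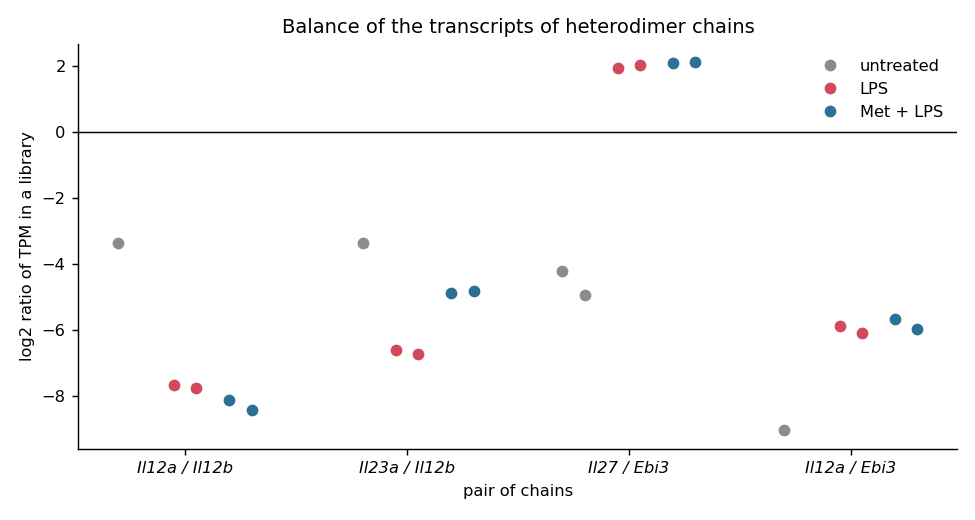
Log2 ratio of TPM of the named chains in each library. Points are libraries (grey, untreated; red, LPS; blue, Met + LPS), and an untreated library without reads for a chain has no point. The Il23a to Il12b ratio lies higher in Met + LPS (mean -4.85) than in LPS (mean -6.66), and the Il27 to Ebi3 ratio is near 2 in both.

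Dendritic cells are another source of IL-12, and the 6 dendritic cell markers summed to 1.02 to 1.41 TPM in untreated, 2.48 to 2.49 TPM in LPS and 2.26 to 2.88 TPM in Met + LPS libraries. Of these markers 4 were under 1 TPM in every library, and Flt3 was at 0.107 TPM or less. The 2 tested were Zbtb46 (means of 0.136, 1.34 and 0.784 TPM in untreated, LPS and Met + LPS libraries) and Xcr1 (0.0600, 0.696 and 1.15 TPM). Both were higher in LPS than in untreated cells, under the size cut-off in limma and called with voom. Neither was called in Met + LPS vs. LPS in limma, and 1 was called lower with voom. The part of dendritic cells in the levels of Il12b, Il12a and Il23a was not tested. Among the 6 T and NK cell markers 1 was tested, Lck, which was called lower in Met + LPS than in LPS (-0.99, adjusted p = 0.00022 in limma), and Cd3g was at 0 in every library.

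Lif and Osm lie 16.5 kb apart on chromosome 11, so their neighbourhood was examined after their values were seen. In a window reaching 100 kb beyond either gene, 13 genes were listed and 9 were tested, of which 7 were others than Osm and Lif. Of these 7, 0 were called in Met + LPS vs. LPS in limma, 2 passed an unadjusted p under 0.05 and 0 were called with voom. Log2 fold changes lay between -0.16 (Ccdc157) and 0.95 (Mir3060, a miRNA gene inside Rnf215, adjusted p = 0.11 in limma). Mir3060, with 83 exon bases, was at 1.58 and 0 TPM in LPS and 1.59 and 2.72 TPM in Met + LPS libraries. Gm24803, with 107, was at 0 TPM in both LPS libraries and at 1.24 and 0 TPM in Met + LPS libraries. For such short genes these values rest on very few reads. The nearest tested gene upstream of Osm, Castor1, an arginine sensor of the mTORC1 pathway, was at means of 9.52, 4.36 and 5.66 TPM in untreated, LPS and Met + LPS libraries, with a log2 fold change of 0.32 in Met + LPS vs. LPS (adjusted p = 0.13 in limma). Tbc1d10a, a GTPase-activating protein, had 0.64 (adjusted p = 0.00043 in limma), under the size cut-off.

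**Figure D4:**
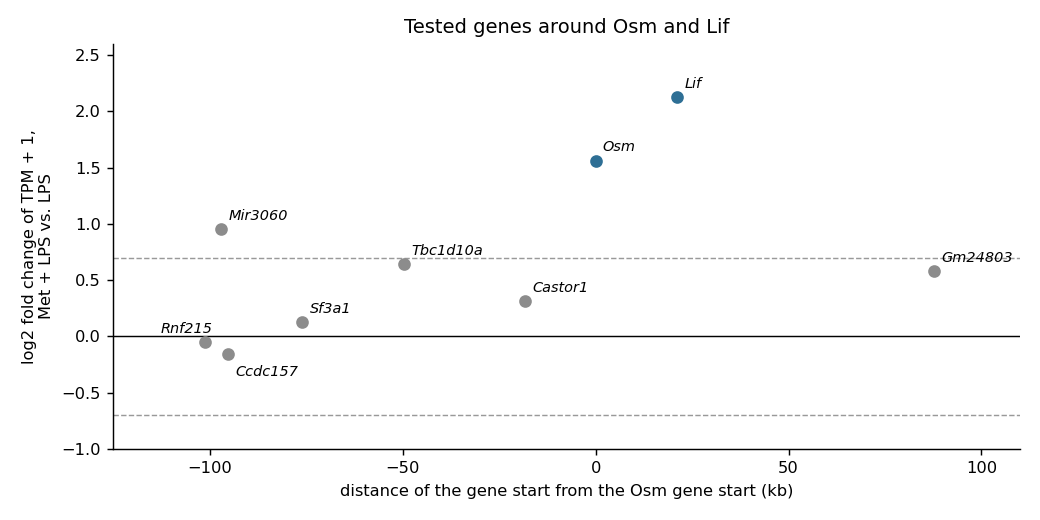
Log2 fold change of TPM + 1 in Met + LPS vs. LPS of the 9 tested genes around Osm and Lif, against the distance of each gene start from the Osm gene start in kb. Blue points are Osm and Lif, grey points the other genes, and dashed lines the cut-offs of 0.7. Osm (1.56) and Lif (2.13) stand above the others, of which Mir3060 is highest at 0.95 without passing the test. The points of Mir3060 and Gm24803 rest on very few reads.

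Genes with the most similar pattern were taken as the 3 with the smallest root mean square (RMS) difference of centred log2(TPM + 1) over the 6 libraries. For Il6 these were Ifit1, Rsad2 and Tnfsf9, with RMS differences of 0.14, 0.15 and 0.19. For Ebi3 they were Ppargc1b, Mob3c and Rnf213 (0.03, 0.04 and 0.04), and for Osm Lrrc75a, Xylt1 and Tnfrsf26 (0.06, 0.08 and 0.09). For Il23a they were Htr2a, Kdm6b and Slc7a11 (0.28, 0.32 and 0.34), and for Lif Tnfsf18, Slc7a11 and Htr2a (0.28, 0.34 and 0.38). Il23a and Lif thus had larger RMS differences from their nearest genes than Ebi3 and Osm. The RMS was not scaled to the range of a gene. That range was wider for Il23a and Lif (log2 fold changes of 4.51 and 3.81 in Met + LPS vs. untreated) than for Ebi3 and Osm. Il23a and Lif differed from each other by an RMS of 0.48, the smallest among the members for either.

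Other ligands of the IL-6 family were at the floor. Il11, Cntf, Ctf1, Ctf2 and Il31 were under 1 TPM in every library, at most 0.781 TPM (Cntf in an untreated library), and none of these 5 passed the filter for testing.

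Of 11 receptor chains, 6 were tested, and Osmr, Cntfr, Il31ra, Il12rb1 and Il23r did not pass the filter. In LPS vs. untreated, 0 of the 6 were called in limma, where 3.72% of all tested genes were called higher and 2.37% lower. At an unadjusted p under 0.05 in limma 6 were lower, and 0 were called with voom. The median over all tested genes was itself -0.48 in this comparison. Il27ra (-0.38) and Il12rb2 (-0.33) lay above that median, so that not all 6 were lower relative to it. Il6st, which encodes gp130, was at 125 and 128 TPM in untreated, 41.0 and 41.5 TPM in LPS and 61.3 and 56.6 TPM in Met + LPS libraries. Its log2 fold change of -1.59 in LPS vs. untreated and that of Il6ra, the IL-6 binding chain, of -1.85 were both under the size cut-off. Pretreatment left 1 of 6 called lower and 0 higher, where 4.09% and 4.19% of all tested genes were. Without a size cut-off 4 of 6 passed an adjusted p under 0.01 in limma, where 32.6% of all tested genes did. At an unadjusted p under 0.05, 3 were higher and 2 lower, and 0 were called higher with voom. The one called was Lifr, the receptor chain of LIF, at 3.91 and 4.42 TPM in untreated, 1.93 and 1.89 TPM in LPS and 0.663 and 0.744 TPM in Met + LPS libraries (log2 fold change -0.77, SE 0.11, adjusted p = 0.0017 in limma). Lifr was lower where its ligand Lif was higher in these libraries.

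All 10 JAK and STAT genes of the list were tested. LPS raised 2 of them past the cut-offs, Jak2 (log2 fold change 4.26) and Stat5a (3.70), where 3.72% of all tested genes were called higher. With pretreatment 2 were called lower, Stat5a (-0.92, adjusted p = 1.8e-05 in limma) and Stat3 (-0.74, adjusted p = 0.00013), the main STAT of the IL-6 family. Stat3 was at 78.1 and 87.2 TPM in LPS and at 49.6 and 48.3 TPM in Met + LPS libraries. Over all tested genes, 4.09% were called lower and 4.19% higher. None of the 10 was called higher in limma or with voom, and voom called 2 lower. At an unadjusted p under 0.05 in limma, 0 were higher and 8 lower. Without a size cut-off 8 passed an adjusted p under 0.01, where 32.6% of all tested genes did. The median log2 fold change of the 10 was -0.33, beside -0.03 among all tested genes.

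Of 9 feedback inhibitors, 8 were tested, and LPS raised 3 past the cut-offs, Socs3 (8.77), Cish (5.42) and Socs1 (5.38). The share of all tested genes called higher with LPS was 3.72%. Met + LPS libraries had 2 called lower than LPS, Cish (-1.01, adjusted p = 0.00012 in limma) and Socs1 (-0.81, adjusted p = 0.0019). The shares of all tested genes were 4.09% lower and 4.19% higher. None of the 8 was called higher in limma or with voom, and voom called 3 lower. At an unadjusted p under 0.05 in limma, 0 were higher and 7 lower. Without a size cut-off 6 passed an adjusted p under 0.01, where 32.6% of all tested genes did. Socs3, the inhibitor of gp130 signaling, had -0.65 (SE 0.07, adjusted p = 0.00054 in limma), just under the size cut-off. The median of the 8 was -0.64.

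Among 22 regulators of transcription of the members, all tested, LPS raised 11 past the cut-offs and lowered 1, Fos. Of all tested genes, 3.72% were called higher and 2.37% lower with LPS. Between Met + LPS and LPS 2 were called higher and 3 lower, where 4.19% and 4.09% of all tested genes were. Bhlhe40 (1.63, adjusted p = 1.6e-05 in limma), a transcription factor of T cells and macrophages, and the AP-1 subunit Fos (1.27, adjusted p = 1.9e-05) were higher. Both had, like Osm, lower values in LPS than in untreated cells. Fos was at 56.4 and 59.7 TPM in untreated, 8.55 and 8.21 TPM in LPS and 22.2 and 21.0 TPM in Met + LPS libraries. Cebpd (-1.61, adjusted p = 3.1e-05), the atypical inhibitor protein gene Bcl3 (-0.91, adjusted p = 8.4e-05) and Irf8 (-0.87, adjusted p = 0.00057), a factor of myeloid development, were lower in limma. The NF-kappaB subunit genes Rela, Rel, Nfkb1, Nfkb2 and Relb had log2 fold changes between -0.33 and -0.07, under the size cut-off. Nfkb1 (adjusted p = 0.0008 in limma), Nfkb2 (0.0019) and Relb (0.0021) passed an adjusted p under 0.01, and Rela (0.09) and Rel (0.2) did not.

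Of 11 regulators of mRNA stability, all tested, LPS raised 4 past the cut-offs and lowered 2. Among all tested genes 3.72% were called higher and 2.37% lower with LPS, and 4.19% and 4.09% in Met + LPS vs. LPS. Pretreatment left 1 called higher, Zfp36l2, whose protein promotes the decay of AU-rich mRNAs (1.61, adjusted p = 9.8e-06 in limma). It was at 264 and 262 TPM in untreated, 13.7 and 14.2 TPM in LPS and 46.9 and 42.2 TPM in Met + LPS libraries. One was called lower, Arid5a, which stabilizes Il6 mRNA (-0.81, adjusted p = 0.00099 in limma). Zc3h12a, whose product Regnase-1 degrades Il6 and Il12b mRNA, had 0.22 (adjusted p = 0.0044 in limma), under the size cut-off. In the other direction, Zfp36, of the same gene family as Zfp36l2, had -0.68 (adjusted p = 0.0002 in limma), just under the size cut-off. At an unadjusted p under 0.05 in limma, 4 of the 11 were higher and 4 lower. These lists were chosen with earlier results of these data known, and their counts are descriptions.

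**Figure D5:**
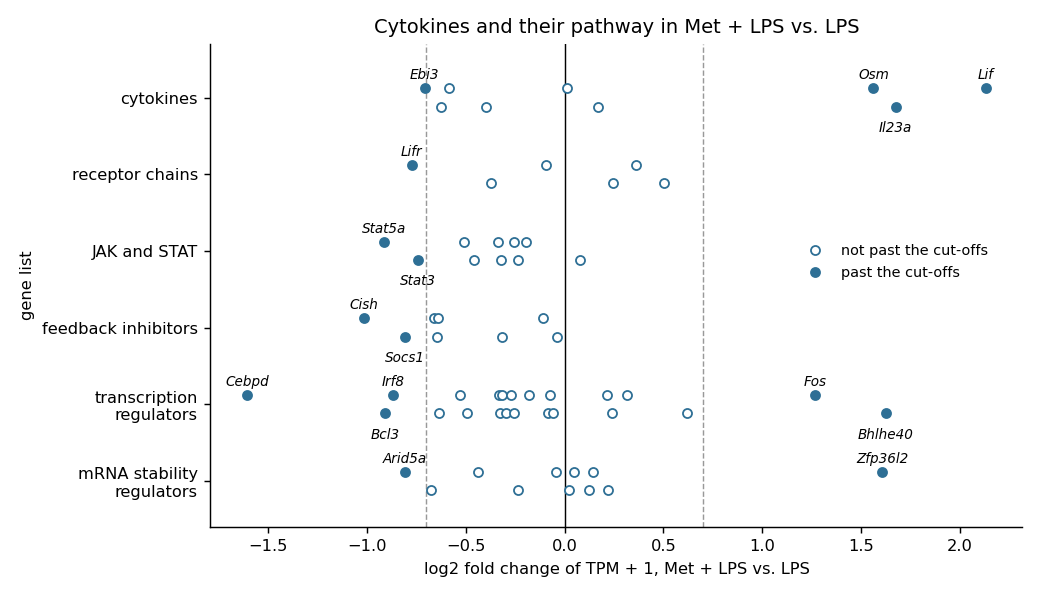
Log2 fold change of TPM + 1 in Met + LPS vs. LPS of the tested genes of each list. Filled points passed the cut-offs (dashed lines at 0.7 in either direction and an adjusted p under 0.01 in limma) and carry the gene symbol, and open points did not. Of the receptor, JAK and STAT, and feedback lists, the called genes (Lifr, Stat3, Stat5a, Cish and Socs1) lie on the left, while Il23a, Osm and Lif lie on the right.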

How the data were processed

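Poly-A RNA of BMDMs was sequenced in 6 libraries (untreated, LPS, Met + LPS, 2 each), grouped by the sample labels. The authors aligned single-end reads to GRCm38 with STAR 2.6.1d and counted them per gene with featureCounts (Subread 1.6.3), and SAMtools 1.9 is named in the submitters' processing notes. They deposited TPM values per library for 54532 genes. How counts became TPM is not given in the sources used here. The study's own test, DESeq2 on counts, was not used because the deposited values are TPM.

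The 12755 genes that reached 1 TPM in 2 or more libraries were tested with limma 3.58.1 (R 4.3.3) on log2(TPM + 1), a pseudocount of 1, with lmFit and eBayes with trend, all 6 libraries in one fit (3 residual degrees of freedom), and Benjamini-Hochberg adjustment over all tested genes. The cut-offs are those of the study's methods, that of LPS vs. untreated serving also for Met + LPS vs. untreated. Chain ratios were tested with two-sided exact permutation tests in Python 3.11.15 with scipy 1.17.1. Plots used matplotlib 3.10.9.

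Multiplying TPM by exon length (GENCODE M21, 54495 genes matched) gave whole reads, within 0.05 of a read, for 97.4% to 97.8% of the values under 500 reads. Sums were 25457020 to 30762763 reads on genes. These reads served for limma voom and for exact 95% intervals of ratios. The intervals pool the reads of a group and cover counting error only, without the spread between libraries. Reads carry no molecular identifiers, so that copies of a molecule cannot be told apart.

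The cytokines and gene lists were chosen with earlier results of these data known. All cytokines are named, and of each list the genes past the cut-offs of Met + LPS vs. LPS with a few further members chosen after their values were seen. Similar genes are the 3 nearest, for Il6 and each cytokine called in Met + LPS vs. LPS. Chain ratios with Il23a over Il12a, Lif over Il6 and Osm over Il6, and the genes around Osm and Lif, were added after seeing the data. 1 gene of these lists is not reported here. The tests were checked on simulated data. The alternatives tried were median-ratio scaling, a pseudocount of 0.1, a minimum of 5 TPM, no filter, the compared groups alone, the replicate number as a block, no trend, voom, an adjusted p of 0.05, and leaving out each library.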

Additional observations from a re-analysis of the deposited data

How the results depend on the processing

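The number of members called higher in LPS vs. untreated was 5, and 8 with a pseudocount of 0.1 and 8 with voom on recovered reads, where Il12a, Lif and Clcf1 also passed. Leaving out each library in turn gave 5 to 6. In Met + LPS vs. LPS, 3 were called higher under every leave-one-out setting. The number called lower was 1, and 0 with median-ratio scaling and 2 with voom, where Clcf1 joined Ebi3, and 0 to 1 with each library left out, with 0 without the second LPS library. At any size, 4 members passed an adjusted p of 0.01, against 7 with voom and 7 at an adjusted p under 0.05 (4 to 5 with each library left out). With each library left out, the log2 fold change of Il12b in Met + LPS vs. LPS lay between -0.0077 and 0.0311, and it was negative without the second LPS library (-0.0077) and without the second Met + LPS library (-0.0075). The difference in the log2 ratio of Il23a to Il12b was 1.81, and 1.66 with a pseudocount of 1 in both chains. The cause of these changes was not tested. A minimum of 5 TPM left Il12a and Clcf1 untested.

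Replicate numbers are shared between groups, and the sources used here do not say whether they pair the samples. The correlations of the deviations of same-numbered libraries from their group means were -0.00 (untreated and LPS), 0.03 (untreated and Met + LPS) and 0.01 (LPS and Met + LPS). With the replicate block in the fit, the numbers of members called in Met + LPS vs. LPS were 3 higher and 1 lower, and the block changed no other call of a member count. The untreated values of Il12a, Il23a, Lif and Clcf1 rest on 0 or 1 read per library, so that their changes from untreated cells have wide intervals, and 2 libraries per group limit every comparison.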

Other observations

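Other ratios between members were computed after their values were seen and are given as values. The ratio of Il23a to Il12a, the alternative partners of p40, was 2.09 and 2.01 after LPS alone and 9.36 and 12.1 after metformin and LPS. Within the IL-6 family, Il6 was 76.1 and 77.9 times as abundant as Lif in LPS and 14.2 and 15.5 times in Met + LPS. Il6 was 40.2 and 45.2 times as abundant as Osm in LPS and 13.2 and 14.8 times in Met + LPS, while in untreated cells Osm exceeded Il6 by 49.9 and 29.3 times. For each of these 3 ratios, the Met + LPS libraries lay outside the range of the LPS libraries (exact permutation p = 0.333 for each, the smallest possible with 2 against 2).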
